A study of Homo sapiens with 4 samples.

Results

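The alpha-arrestins TXNIP, ARRDC1, ARRDC2, ARRDC3 and ARRDC4 were examined in the human colon cancer line HCT116, exposed to hydrogen peroxide (H2O2) or left untreated. The genes were taken by symbol from a deposited table of 16376 genes, and 4 of the 5 symbols had a row, namely ARRDC1, ARRDC2, ARRDC3 and ARRDC4. TXNIP had no row under that symbol and is not analysed here. Poly(A)-selected RNA was sequenced from 2 H2O2-treated and 2 Control samples. The labels give no dose and no exposure time. Whether samples of one group were grown as separate cultures is not stated, and p-values therefore reflect the spread between these samples, which may be technical.

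Alpha-arrestins are adaptor proteins with an arrestin fold. Most carry short proline-rich motifs that bind the WW domains of NEDD4 family ubiquitin ligases, and in this way they bring these ligases to receptors and transporters at membranes. TXNIP is in addition known for binding thioredoxin, the small redox protein that reduces oxidised cysteines, and for restraining glucose uptake. TXNIP and ARRDC4 are both known targets of MondoA, a glucose-responsive transcription factor encoded by MLXIP that works as a dimer with MLX.

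With H2O2, the authors' deposited table has ARRDC3 at 1.56 and ARRDC4 at 0.681 times its Control mean, a rise and a fall that both passed its test, so that relatives of one family changed in opposite directions. ARRDC2 stood at 1.23 and ARRDC1 at 0.906 times the Control mean in the authors' deposited table, and neither passed the threshold of an adjusted p under 0.05. In RNA from whole cultures, fewer cells expressing a gene and less of its RNA per cell cannot be told apart. Among all genes 7.19% passed there, 2.58% higher and 4.62% lower with H2O2, against 1 of the 4 ARRDC genes higher and 1 lower. The call of ARRDC3 rests on the authors' test: limma on the single libraries, described next, gave nearly the same size of change with an adjusted p of 0.0585.

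The deposited values are means of normalized counts, that is, reads divided by a size factor for each library's depth. Whole read counts of the 4 libraries were recovered by solving each group mean for a pair of whole numbers. Over the listed genes the H2O2 libraries held 7365032 and 6858809 reads and the Control libraries 7309731 and 6892854. Each group thus has a deeper and a shallower library, named in this way since the table does not tie them to replicate numbers. The table names its groups A and B, and the order in which its name gives Control and H2O2 was used to assign them, on which every direction rests. Of 8 colon epithelial markers 7 had a row, and their summed normalized counts were 5862 and 6365 with H2O2 against 5209 and 5572 in Control. Of 5 fibroblast markers COL1A1 and COL3A1 had a row, summing to 736 and 797 with H2O2 and to 915 and 992 in Control. CD14 was the 1 of 5 leukocyte markers with a row, at 18.3 and 10.4 with H2O2 against 4.79 and 3.08 in Control, and KDR the 1 of 4 endothelial markers, at 13.5 and 8.32 with H2O2 against 6.71 and 6.16 in Control. Defining markers such as PTPRC, PECAM1 and VWF had no row. The part of these differences in the results below was not tested.

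The sequence around the start sites of the genes that changed is shown because MondoA and MLX are known to bind E boxes, and because ARRDC3 and ARRDC4 changed in opposite directions. RefSeq windows of 300 bases on GRCh38.p14, running from 250 bases before a gene's start to 50 bases after it, were matched by symbol for all 4 genes. That build is not the hg19 named in the submitters' processing notes. Capitals mark every match to one of 4 motifs, read on both strands, and no matches overlapped. They are the E box, searched as CACGTG, and the CCAAT box that the NF-Y factors bind, searched by its name's letters. The other motifs are the forkhead motif of FOXO factors, searched as GTAAACA, and that of AP-1 factors such as FOS and JUN, for which the letters were TGACTCA. The first line is ARRDC4 on chromosome 15 (chr15:97960453-97960752, plus strand), and the other lines are the start sites that RefSeq gives for ARRDC3 on chromosome 5, the upstream one (chr5:91383268-91383567, minus strand) and the downstream one (chr5:91380048-91380347, minus strand).
ARRDC4: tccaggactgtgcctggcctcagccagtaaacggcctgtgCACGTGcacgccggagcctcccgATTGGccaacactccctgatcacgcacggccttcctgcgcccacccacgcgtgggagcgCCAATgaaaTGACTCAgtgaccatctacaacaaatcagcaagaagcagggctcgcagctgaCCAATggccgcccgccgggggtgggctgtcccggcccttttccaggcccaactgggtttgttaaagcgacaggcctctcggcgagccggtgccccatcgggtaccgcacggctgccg
ARRDC3 upstream start: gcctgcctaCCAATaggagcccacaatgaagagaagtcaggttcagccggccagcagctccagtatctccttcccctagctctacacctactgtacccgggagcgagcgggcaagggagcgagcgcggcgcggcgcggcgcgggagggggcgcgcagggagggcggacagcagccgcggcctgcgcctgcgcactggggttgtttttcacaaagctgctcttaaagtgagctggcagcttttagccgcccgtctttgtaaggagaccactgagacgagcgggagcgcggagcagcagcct
ARRDC3 downstream start: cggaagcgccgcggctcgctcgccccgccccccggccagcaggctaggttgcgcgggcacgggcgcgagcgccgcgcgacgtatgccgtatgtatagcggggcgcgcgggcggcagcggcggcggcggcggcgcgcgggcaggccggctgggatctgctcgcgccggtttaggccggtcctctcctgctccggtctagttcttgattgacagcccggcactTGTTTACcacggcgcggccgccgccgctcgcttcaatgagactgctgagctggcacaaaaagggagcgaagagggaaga

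The ARRDC4 window held 1 E box, whose first base lies at -210 from the start site, 3 CCAAT boxes at -187, -128 and -67, and 1 AP-1 motif at -119. Of all 34943 distinct promoter windows of this length, 7.23% held the E box, 34.6% at least 1 CCAAT box and 4.96% the AP-1 motif. The share of windows with 3 CCAAT boxes was not counted. The upstream window of ARRDC3 held 1 CCAAT box at -241, and its downstream window 1 forkhead motif at -29, a motif found in 3.42% of windows. Neither ARRDC3 window, nor the ARRDC1 window or the ARRDC2 windows on chromosomes 9 and 19, held CACGTG. A pair of E-box-like sites, searched only as CACGNG repeated after 5 bases on the same strand, was in none of these windows. It was in 0.0572% of all windows. MondoA-MLX sites are known to occur in such an arrangement, and pairs with other letters were not searched. These matches describe letters within the windows alone.

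ARRDC3 encodes an alpha-arrestin known for working with NEDD4 family ligases and for promoting the degradation of integrin beta4 in breast cancer cells. It had 350 and 464 reads in the deeper and shallower H2O2 libraries, against 230 and 297 in the deeper and shallower Control libraries. On the normalized scale these were 338 and 483 with H2O2 and 220 and 305 in Control, a mean of 410 ± 102 with H2O2 against 263 ± 59.7 in Control (SD, n = 2 each). The groups did not overlap, but the lower H2O2 library stood close to the higher Control library. The 95% Poisson interval of the lower H2O2 library, 303 to 375 normalized counts, overlapped that of the higher Control library, 271 to 342, and such intervals cover counting error only. Within each group the shallower library was the higher one, 1.43-fold with H2O2 and 1.38-fold in Control, where the group means differed 1.56-fold. The spread of the H2O2 libraries was nearly as large as the difference between the group means.

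The authors' deposited table gave ARRDC3 a log2 fold change of 0.64 (adjusted p = 9.45e-04, DESeq). It ranked 308 by size among the 422 genes called higher there, and 0.949% of genes with a mean of at least 50 had a log2 fold change as high or higher. limma gave 0.64 ± 0.18 on the log2(normalized count + 1) scale (SE, adjusted p = 0.0585), where 4.1% of all genes were called, 1.52% higher and 2.58% lower. Without the shallower H2O2 library the log2 fold change was 0.38, and without the deeper Control library it was 0.40 (limma). Without the deeper H2O2 library it was 0.89, and without the shallower Control library 0.87 (limma). Both H2O2 libraries lay above both Control libraries, so leaving 1 library out could not change the sign. The size, and whether ARRDC3 passed in limma, depended on which library was left out.

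ARRDC4 encodes the relative closest to TXNIP in its known regulation, and like TXNIP it is known to lower glucose uptake. It had 184 and 209 reads in the deeper and shallower H2O2 libraries, against 285 and 299 in the deeper and shallower Control libraries. Normalized, these were 178 and 217 with H2O2 and 273 and 307 in Control, a mean of 198 ± 28.1 with H2O2 against 290 ± 23.9 in Control (SD, n = 2 each). Both H2O2 libraries were below both Control libraries, and the gap between the groups was larger than the gap within either. The libraries of a group differed 1.22-fold with H2O2 and 1.12-fold in Control. The 95% Poisson intervals of the nearest libraries, 189 to 249 with H2O2 and 242 to 307 in Control, overlapped at their ends.

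The authors' deposited table gave ARRDC4 a log2 fold change of -0.55 (adjusted p = 0.0129, DESeq), and the gene ranked 457 by size among the 756 genes called lower there. Of genes with a mean of at least 50, 3.68% had a log2 fold change as low or lower. limma gave -0.56 ± 0.15 (SE, adjusted p = 0.0477). Without the deeper H2O2 library the value was -0.41, and without the shallower H2O2 library -0.70 (limma). Both H2O2 libraries lay below both Control libraries, so leaving 1 library out could not change the sign. The size depended on which was left out. ARRDC4 was the 1 member that both tests called with all 4 libraries. Its adjusted p over the limma fits with all 4 libraries was 0.02 to 0.0487, the highest just under the threshold. With a library left out, whether ARRDC4 passed in limma also depended on which one.

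ARRDC2, a relative of ARRDC3 whose own functions are less studied, had 461 and 349 reads in the deeper and shallower H2O2 libraries, against 334 and 326 in the deeper and shallower Control libraries. Its normalized counts were 445 and 363 with H2O2 and 320 and 335 in Control, a mean of 404 ± 58.0 with H2O2 against 327 ± 10.2 in Control (SD, n = 2 each). The groups did not overlap, and the deeper H2O2 library alone stood far above the others. In the authors' deposited table the log2 fold change was 0.30 with an unadjusted p of 0.0359 (adjusted p = 0.211, DESeq), and limma gave 0.30 ± 0.13 (SE, adjusted p = 0.231). Without the deeper H2O2 library the value was 0.15, and without the shallower H2O2 library 0.44 (limma). It was 0.26 without the deeper Control library and 0.33 without the shallower Control library (limma). ARRDC2 therefore did not pass with all 4 libraries, and its value without the deeper H2O2 library was smaller than its standard error of 0.21 in that fit.

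ARRDC1 encodes the alpha-arrestin known for recruiting the ESCRT protein TSG101 to the plasma membrane, where vesicles then bud from the cell surface. It had 601 and 557 reads in the deeper and shallower H2O2 libraries, against 615 and 673 in the deeper and shallower Control libraries. Normalized, these were 580 and 579 with H2O2 and 589 and 691 in Control, a mean of 580 ± 0.547 with H2O2 against 640 ± 71.7 in Control (SD, n = 2 each). Of these the shallower Control library alone stood apart, and the other libraries lay within one another's Poisson intervals. The authors' deposited table gave a log2 fold change of -0.14 (adjusted p = 0.628, DESeq), and it was -0.14 ± 0.12 in limma (SE, adjusted p = 0.537). It moved to -0.024 without the shallower Control library and to -0.25 without the deeper one (limma).

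**Figure D1:**
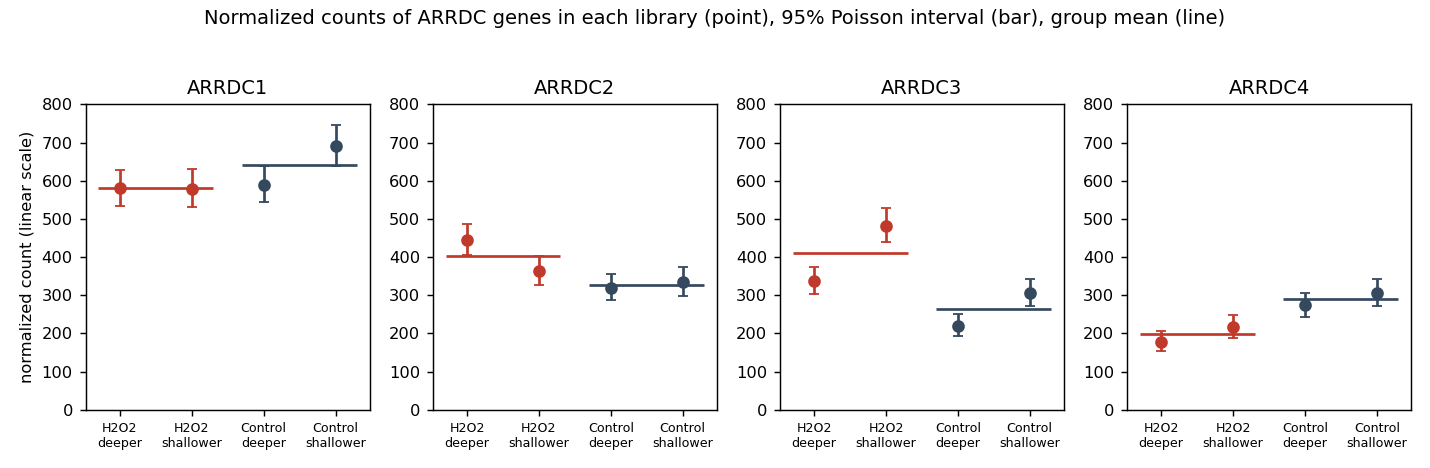
Normalized counts (linear axis from 0) of ARRDC1, ARRDC2, ARRDC3 and ARRDC4 in the 2 H2O2 libraries (red) and the 2 Control libraries (dark), with 95% Poisson intervals as bars and group means as lines. ARRDC2 and ARRDC3 are higher and ARRDC1 and ARRDC4 lower in both H2O2 libraries, a separation of the groups that 51.9% of all genes had. In ARRDC3 the libraries of a group also stand apart, at 338 and 483 with H2O2 and 220 and 305 in Control.

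For none of the 4 genes did the libraries of the groups overlap, 2 with H2O2 higher and 2 with H2O2 lower. With 2 libraries a group this is common: 51.9% of all genes in the table had groups that do not overlap, 26.3% with H2O2 higher and 25.6% with H2O2 lower.

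Per kilobase of annotated exons, ARRDC1 had the highest level of the 4 genes in both groups, at 152 normalized counts per kb with H2O2 and 168 in Control. With H2O2 it was followed by ARRDC2 at 87.1, ARRDC3 at 83.1 and ARRDC4 at 48.5 normalized counts per kb. In Control it was followed by ARRDC4 at 71.2, ARRDC2 at 70.6 and ARRDC3 at 53.2. The order of ARRDC2 and ARRDC3 with H2O2 is not resolved, since their libraries spanned 78.3 to 96.0 and 68.5 to 97.8 normalized counts per kb. That of ARRDC4 and ARRDC2 in Control is not resolved either, at 67.1 to 75.4 and 69.0 to 72.2. ARRDC4 was thus below the other members in both H2O2 libraries and beside ARRDC2 in both Control libraries. The lengths are merged exons of GENCODE release 29, from 3821 bases for ARRDC1 to 4934 for ARRDC3, and the annotation behind the counts may differ from it.

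Because ARRDC3 and ARRDC4 were counted in the same libraries, their ratio does not depend on size factors. There were 1.90 and 2.22 ARRDC3 reads per ARRDC4 read in the deeper and shallower H2O2 libraries, against 0.807 and 0.993 in the deeper and shallower Control libraries. The mean ratio was 2.06 ± 0.225 with H2O2 and 0.900 ± 0.132 in Control (SD, n = 2 each), 2.29 times as high with H2O2. This ratio restates the fold changes of the 2 genes. Since ARRDC3 was higher and ARRDC4 lower in both H2O2 libraries, the ratio had to separate the groups. An exact two-sided permutation test could therefore give only p = 0.333, the smallest p that 2 against 2 libraries allow, and it adds no support. ARRDC4 reads thus outnumbered ARRDC3 reads in both Control libraries, narrowly in the shallower, and were the fewer in both H2O2 libraries.

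Of all reads on the 4 genes, ARRDC4 took 11.5% and 13.2% in the deeper and shallower H2O2 libraries, against 19.5% and 18.7% in the deeper and shallower Control libraries. ARRDC3 took 21.9% and 29.4% with H2O2 and 15.7% and 18.6% in Control. The sum of the 4 genes was 1541 and 1642 normalized counts with H2O2, against 1403 and 1637 in Control. The shares of ARRDC3 and of ARRDC4 did not overlap between the groups, while the sums did. These shares restate the counts of the same 4 genes, and for 51.9% of all genes in the table the counts did not overlap either.

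**Figure D2:**
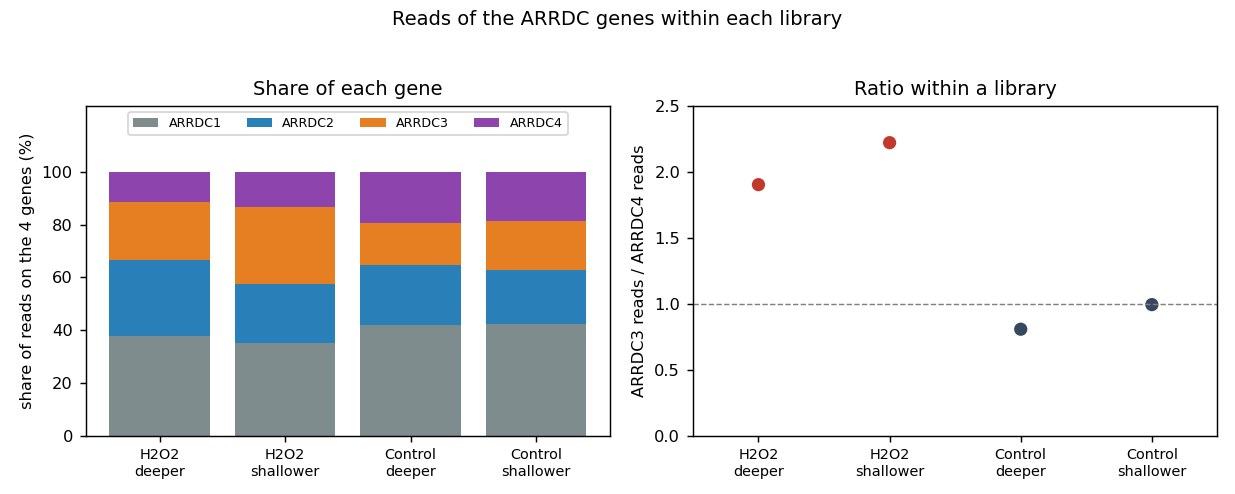
Left, the share of reads (%) that each ARRDC gene took among reads on the 4 genes in each library. Right, ARRDC3 reads divided by ARRDC4 reads in each library (linear axis from 0, dashed line at 1), at 1.90 and 2.22 in the H2O2 libraries (red) and 0.807 and 0.993 in the Control libraries (dark).

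Whether the counting used strand is not given in the sources used here, so reads of a gene and of a partner on the opposite strand cannot be told apart where their exons overlap. In GENCODE release 29 the antisense gene ARRDC3-AS1 shares 2.94% of the exonic bases of ARRDC3, and AC020904.3 9.53% of those of ARRDC2. AL590627.2, on the same strand as ARRDC1, shares 4.79% of the exonic bases of that gene, so their reads there cannot be told apart under any strand setting. The opposite-strand ARRDC1-AS1 shares 0.759% of the exonic bases of ARRDC1, and is listed in the table under its older symbol C9orf37. C9orf37 had 152 and 138 reads in the deeper and shallower H2O2 libraries, against 111 and 119 in the Control libraries, and the authors' deposited table gave it a log2 fold change of 0.34 (adjusted p = 0.312, DESeq). Of the 75-base words of the longest coding transcript, 2.31% also occurred in other genes' transcripts for ARRDC1 and 0% for ARRDC2, ARRDC3 and ARRDC4.

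Among genes of the surrounding pathways, MLXIP and MLXIPL were the 2 that passed, both from a list of 11 measured genes. The 7 other lists held no such gene, while 7.19% of all genes in the table passed. MLXIP, which encodes MondoA, fell to 0.690 times the Control mean according to the authors' deposited table (adjusted p = 0.00134, DESeq). It had 936 and 897 reads in the H2O2 libraries, against 1445 and 1245 in the Control libraries, deeper library first, and these did not overlap. limma gave -0.53 ± 0.11 (SE, adjusted p = 0.0109). After removal of a transcript length trend from each library the value was -0.32 (limma, adjusted p = 0.0720), and with one H2O2 library left out the adjusted p was 0.0931 or 0.197 (limma), so this call depended on the setting.

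MLXIPL, which encodes ChREBP, the relative of MondoA best known for turning on glycolytic and lipid synthesis genes in liver, fell to 0.567 times the Control mean according to the authors' deposited table (adjusted p = 2.77e-07, DESeq). It had 628 and 512 reads in the deeper and shallower H2O2 libraries, against 961 and 1060 in the deeper and shallower Control libraries. limma gave -0.82 ± 0.12 (SE, adjusted p = 0.00180), and the gene passed with each library left out in turn. MLX, the shared partner of both, did not pass. It had 668 and 720 reads with H2O2 and 637 and 636 in Control, and the authors' deposited table gave it a log2 fold change of 0.14 (adjusted p = 0.624, DESeq). The other 8 genes of this list of 11, which also held FOXO1, FOXO3, NFYA, NFYB, NFYC, HSF1, KLF6 and NR3C1, did not pass, and from the authors' deposited table the list had a median log2 fold change of -0.025, against -0.0022 over all genes with a mean of at least 10.

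In the 7 other lists no gene passed in the authors' deposited table, nor in limma with all 4 libraries. They held 9 genes of the thioredoxin system and TXNIP partners, 9 glucose transporters, 6 genes of glucose phosphate handling, 11 NEDD4 family ligases and adapters, 6 other arrestin-fold proteins, 11 early ESCRT genes and 7 receptors or carriers described as alpha-arrestin cargo. With p-values left unadjusted, under 0.05, the authors' test gave 1 gene each among the thioredoxin, glucose transporter, glucose phosphate and cargo lists and 0 in the others, where 19.8% of all genes with a mean of at least 10 were under it. limma gave 1 each among the glucose transporters, the ligases and the cargo and 0 in the others, where 20.3% of all such genes were under it. List medians lay between -0.22 for the cargo and 0.13 for glucose phosphate handling on the log2 scale in the authors' deposited table.

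TXN, the thioredoxin gene, had 1167 and 1232 reads in the deeper and shallower H2O2 libraries, against 927 and 1096 in the deeper and shallower Control libraries, and the authors' deposited table gave it a log2 fold change of 0.26 (adjusted p = 0.237, DESeq). TXNRD1, which encodes the reductase that recharges thioredoxin, stood at -0.03 there. SLC2A1, which encodes the glucose transporter GLUT1 that TXNIP is known to remove from the cell surface, had 7165 and 6724 reads with H2O2 and 6213 and 6724 in Control, and the authors' deposited table gave it a log2 fold change of 0.11 (adjusted p = 0.738, DESeq). For TXN and SLC2A1 the deeper Control library had the lowest normalized count of the 4.

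Ligases that alpha-arrestins are known to recruit also stayed under the threshold. NEDD4L stood at a log2 fold change of -0.05, SMURF2 at -0.08 and NEDD4 at -0.04 in the authors' deposited table. Among known partners of single members, TSG101 stood at 0.22 and the ARRDC3 cargo gene ITGB4 at -0.09 in the authors' deposited table. The beta-arrestin gene ARRB2, the phosphoglucose isomerase gene GPI and the ESCRT gene HGS, each the highest of its list, stood at 0.02, 0.13 and -0.12 in the authors' deposited table. A p that misses the threshold does not show that these levels were alike.

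**Figure D3:**
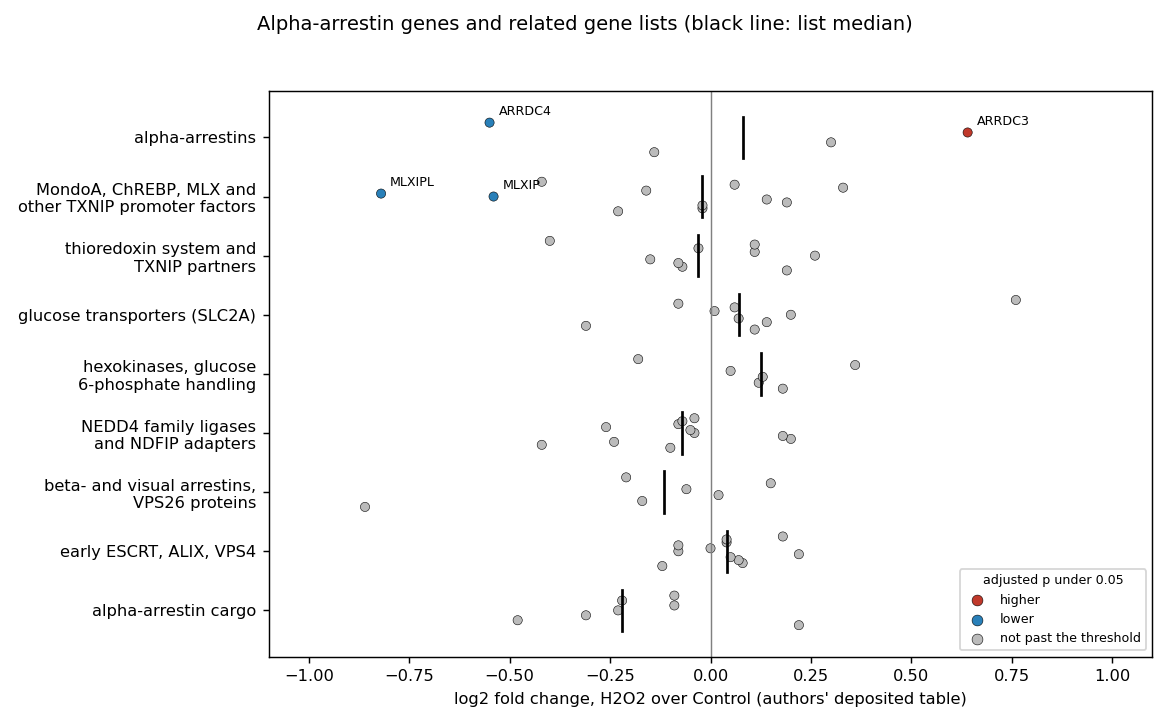
Log2 fold changes, H2O2 over Control, of the measured members (mean of at least 10) of the alpha-arrestin family and of 8 related lists in the authors' deposited table. Red and blue points are genes called higher and lower, grey points did not pass, and black lines are list medians. ARRDC3 is the 1 gene called higher, and ARRDC4, MLXIP and MLXIPL are the 3 called lower.

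The genes whose pattern over the 4 libraries was nearest to each member were taken as the 3 with the smallest Euclidean distance between centred log2(normalized count + 1) values, among 12117 others with a mean of at least 50. For ARRDC3 these were DUSP10, DUSP5 and METTL21B, at distances of 0.129, 0.147 and 0.185. DUSP5 and DUSP10 encode phosphatases of MAP kinases. DUSP5 had 651 and 767 reads in the deeper and shallower H2O2 libraries, against 399 and 555 in the deeper and shallower Control libraries, so that like ARRDC3 it was higher in the shallower library of each group. In the authors' deposited table it was called higher, with a log2 fold change of 0.58 (adjusted p = 9.29e-04, DESeq).

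For ARRDC4 the nearest were ABCC10, DOCK3 and CCDC84, at distances of 0.0463 to 0.0656, all called lower in the authors' deposited table with log2 fold changes of -0.58, -0.54 and -0.59. ABCC10, which encodes a drug efflux transporter, had 267 and 293 reads with H2O2 and 417 and 429 in Control, deeper library first. ARRDC2 lay nearest to RTN4R, at 0.0248, and to a pair of clone-named transcripts. ARRDC1 lay nearest to NECAB3, TRAIP and DUS1L, at 0.0103 to 0.0227, none of which passed. Between members the distance was largest for ARRDC3 and ARRDC4, at 1.22, and smallest for ARRDC1 and ARRDC4, at 0.469, so no member was among the nearest genes of another. Such a likeness over 4 libraries is a description and follows from how the patterns were chosen.

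**Figure D4:**
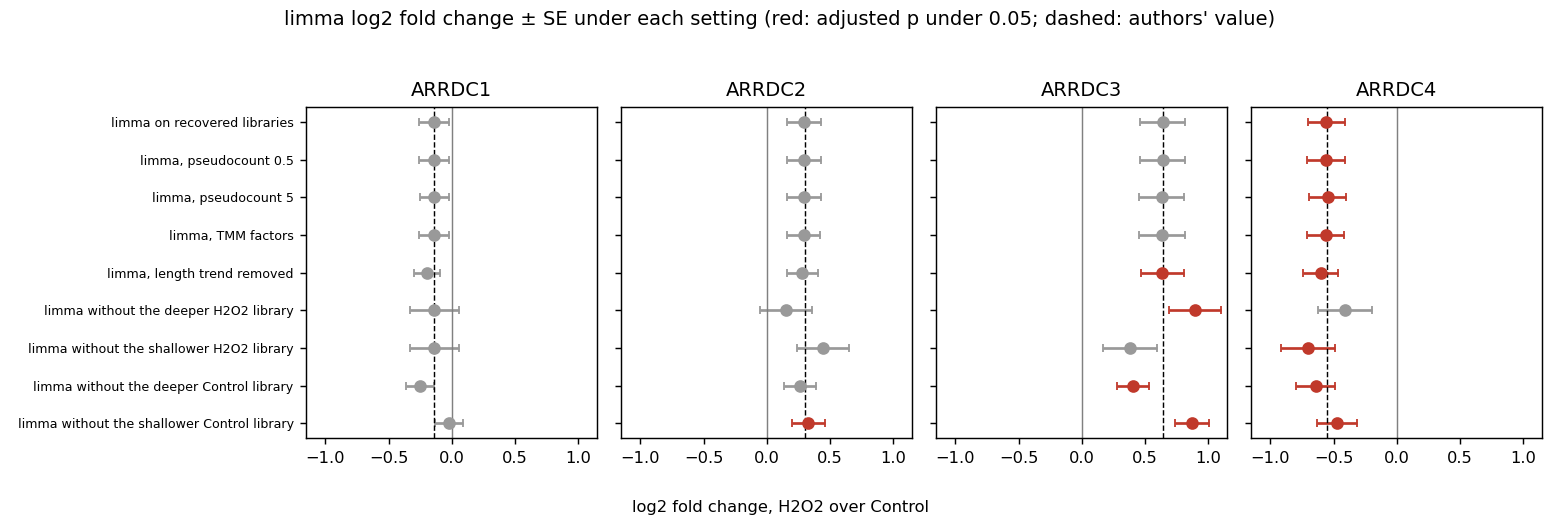
limma log2 fold changes, H2O2 over Control, of the 4 genes with their standard errors (bars) under each pseudocount, scaling, length correction and left-out library, red where the adjusted p was under 0.05; dashed lines mark the authors' values. ARRDC3 ranges from 0.38 to 0.89 and ARRDC4 from -0.70 to -0.41, while ARRDC1 comes as near to 0 as -0.024. The groups did not overlap for any of the 4 genes, so leaving a library out could not change a sign.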

How the data were processed

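Poly(A)-selected RNA of 2 H2O2-treated and 2 Control HCT116 samples was sequenced on an Illumina HiSeq, per the labels. The submitters' processing notes name, without roles, the build hg19 and the tools STAR, HTSeq, DESeq, Trim Galore, FastQC and CASAVA 1.8. Neither the annotation nor the strand setting is given in the sources used here. Per the file headers, the deposited signal columns are group means, by the authors, of size-factor-scaled counts. The deposited fold column is the ratio of the group means and the deposited log2 column its log2. The deposited p-value columns are the authors' DESeq test and its Benjamini-Hochberg adjustment over 16376 genes. The lowest deposited mean over both groups was 5.46.

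Each group mean was solved for 1 pair of whole counts within 1e-09, with exactly 1 solution for all 16376 genes, a step tested on simulated data. Size factors recomputed as medians of ratios equalled the recovered ones. Precision is limited by 6858809 to 7365032 reads per library and by 2 libraries per group. An adjusted p under 0.05 in the authors' test is the main call. limma 3.58.1 (R 4.3.3), run on log2(normalized count + 1) with its trended prior variance, was the alternative, and adjusted p-values named limma's carry Benjamini-Hochberg adjustment over all genes tested. Its fold changes understate low genes. A count model was planned only for a column of whole multiples of a single step. Each deposited mean mixes the steps of 2 libraries, so it was not run on the recovered counts, which rest on the solution above and not on a deposited column. The length correction, added after the data were seen, subtracted a lowess trend on exonic length in each library for 11303 genes.

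The members, the 9 lists, the markers and the rule for named genes were chosen with earlier results of these data known. Named genes are the members, the 3 nearest in pattern to each, list genes past the threshold, the highest gene of each list, and MLXIP, MLX, TXN, SLC2A1 and NEDD4L. The list genes NEDD4 and TSG101 and the overlapping C9orf37 were named for their known links to members or their position. Intervals are exact Poisson intervals. All list genes with a mean of at least 10 count as measured.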

Additional observations from a re-analysis of the deposited data

How the results depend on the processing

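The 9 limma fits gave log2 fold changes of -0.252 to -0.024 for ARRDC1, 0.149 to 0.442 for ARRDC2, 0.381 to 0.894 for ARRDC3 and -0.702 to -0.412 for ARRDC4. The other 3 alternatives reuse the deposited fold changes. ARRDC3 was no longer past the threshold in limma with all 4 libraries, at 0.637, at 0.638 and 0.629 with pseudocounts of 0.5 and 5 and at 0.632 with TMM factors (adjusted p = 0.0553 to 0.0663), but passed after the length correction at 0.636 (adjusted p = 0.0427). At an adjusted p under 0.01 in the authors' test ARRDC4, at -0.554, was lost. ARRDC4 also missed the threshold of 0.05 in limma once the deeper H2O2 library was dropped, at -0.412. ARRDC3 missed it once the shallower H2O2 library was dropped, at 0.381. Each of these genes was under that threshold when any other single library was dropped. Of the 4 members 2 passed in the authors' test, 1 with its threshold at 0.01, and 1 in limma with all 4 libraries under each of those pseudocounts and scalings; with a library left out 1 to 3 passed. Over all genes the authors' test gave 1178 calls, and 642 at an adjusted p under 0.01. Of the limma fits, the length-corrected one covered 11303 genes and the others 16376, so its count comes from a smaller set. limma gave 671, 663 and 685 with pseudocounts of 0.5 and 5, 637 with TMM factors, 490 after the length correction, and 284 to 3641 with a library left out, 284 without the deeper H2O2 library, 512 without the shallower, 1396 without the deeper Control library and 3641 without the shallower. Those fits leave a group with a lone library that is assumed to vary like the other group. Of the MondoA list 2 passed, 1 after the length correction and 1 to 3 with a library left out. Counts with a library left out were 0 to 3 for the thioredoxin list, 0 to 2 for glucose transporters (1 in the authors' test with the threshold at 0.1), 0 to 3 for glucose phosphate handling, 0 to 2 for the ligases, 0 to 1 for other arrestin-fold proteins, 0 to 1 for ESCRT genes and 0 to 3 for the cargo. The highest counts came without the shallower Control library, except for the arrestin-fold proteins, where 1 came without the deeper. Where no construction above shows it, the cause was not tested. No paired analysis was possible because the table's columns carry no replicate numbers. The quasi-likelihood count test was not run, as no deposited column holds whole multiples of a single step.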
